A study of Mus musculus with 22 samples.

Results

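The transcripts of 10 genes that mark macrophages or carry their Fc gamma receptors were followed in tumor-associated and control inguinal white adipose tissue (IWAT) of lean and obese mice. The genes were taken by symbol from a table of 23420 genes, and all 10 were in it: Emr1 (Adgre1 in current annotation), Cd68, Itgam, Csf1r, Csf1, Mertk, Fcgr1, Fcgr2b, Fcgr3 and Fcgr4. All 10 passed the filter on low counts, which kept 14458 genes. RNA was sequenced from 22 libraries of 11 wildtype C57Bl/6 female mice. Lean mice (n = 5) ate a chow diet and obese mice (n = 6) a high fat diet (HFD) for 16 weeks. Each animal received cells of the breast cancer line E0771, derived from the same strain, in Matrigel with PBS into the left inguinal fat pad, the source of tumor-associated IWAT, and the Matrigel solution without cells into the right pad, the source of control IWAT. Pads were collected 2 weeks later. The control pad is thus an injected pad of a tumor-bearing animal, and no pad of a tumor-free mouse was compared here. According to the methods, the inguinal lymph node, the tumor with a border of surrounding tissue and, for RNA sequencing, the outermost fat of the pad were taken away, so the libraries are mixtures of adipocytes, stromal and blood cells.

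Macrophages are phagocytes that live in adipose tissue and are replenished in part from blood monocytes. They depend on the cytokine CSF1, which binds the receptor kinase encoded by Csf1r, and they take up dying cells with the help of MERTK, a receptor kinase that recognizes bridged phosphatidylserine. Their Fc gamma receptors bind immunoglobulin G: the products of Fcgr1, Fcgr3 and Fcgr4 pass an activating signal through the common gamma chain encoded by Fcer1g, and the product of Fcgr2b is inhibitory and is also found on B cells.

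Library totals over genes ran from 5759775 to 8598108 reads, and the members had between 14 (Fcgr4 in a lean control library) and 4078 counts (Csf1r in an obese tumor-associated library). Levels are given as CPM (counts scaled to library size) after TMM normalization, and levels of different genes are compared only per kilobase of annotated exon (RPKM). The tissue label was checked against 10 adipocyte markers, whose summed level in lean mice was 12240 to 16210 CPM in control and 8191 to 13630 CPM in tumor-associated pads. The obese control pads held 13500 to 23930 CPM, and the obese tumor-associated pads 1890 CPM (mouse 4) to 11910 CPM. Some obese libraries stood apart. The control pads of obese mice 1 and 3 held 755.8 and 672.3 CPM of 8 B cell markers together, and 283.4 and 290.4 CPM of 7 T cell markers, against 2.92 to 16.4 CPM and 14.3 to 17.9 CPM in the other obese control pads. The tumor-associated pad of obese mouse 3 held 167 CPM of the B cell markers. Obese tumor-associated mice 4 and 2 were the lowest of their group for Emr1, Cd68, Csf1r and Itgam. Counts of genes called are therefore also given without both pads of mice 1 and 3, and without both pads of mice 2 and 4, alternatives chosen after the values were seen.

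To set the Fc gamma receptor genes, whose levels and changes are compared below, in their sequence context, the 250 bases before the RefSeq start of the 4 Fc gamma receptor genes are printed with those of Mertk, the member that was not called in either tumor comparison (RefSeq, build GRCm38.p6, 5′ to 3′ on the strand of the gene). Fcgr2b, Fcgr4 and Fcgr3 lie in a cluster on chromosome 1, Fcgr1 on chromosome 3 and Mertk on chromosome 2. Promoters of 8 of the 10 genes were examined, and those of Emr1 and Csf1r were not. Fcgr3 had a pair of starts, of which the upstream one is shown. Capitals mark GAGGAA, the core letters bound by the myeloid factor PU.1, on either strand (TTCCTC on the opposite one), and TTCNNNGAA, the letters of a STAT site. 
Fcgr1, chr3:96293970-96294219, minus strand: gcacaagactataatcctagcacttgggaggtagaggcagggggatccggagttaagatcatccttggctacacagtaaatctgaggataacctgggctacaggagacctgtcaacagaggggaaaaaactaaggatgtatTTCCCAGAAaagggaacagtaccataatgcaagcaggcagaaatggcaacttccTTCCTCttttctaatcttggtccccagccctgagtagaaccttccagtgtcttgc
Fcgr4, chr1:171018676-171018925, plus strand: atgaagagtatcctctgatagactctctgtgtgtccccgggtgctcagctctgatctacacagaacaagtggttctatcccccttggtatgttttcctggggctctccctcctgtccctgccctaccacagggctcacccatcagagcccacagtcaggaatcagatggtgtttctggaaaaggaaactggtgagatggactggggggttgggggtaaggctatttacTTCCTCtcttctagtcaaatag
Fcgr3, chr1:171059404-171059653, minus strand: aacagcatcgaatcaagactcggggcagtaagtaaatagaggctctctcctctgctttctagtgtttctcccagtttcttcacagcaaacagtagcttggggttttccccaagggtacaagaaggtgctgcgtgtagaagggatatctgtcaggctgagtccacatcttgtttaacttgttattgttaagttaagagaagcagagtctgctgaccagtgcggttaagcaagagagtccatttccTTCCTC
Fcgr2b, chr1:170976072-170976321, minus strand: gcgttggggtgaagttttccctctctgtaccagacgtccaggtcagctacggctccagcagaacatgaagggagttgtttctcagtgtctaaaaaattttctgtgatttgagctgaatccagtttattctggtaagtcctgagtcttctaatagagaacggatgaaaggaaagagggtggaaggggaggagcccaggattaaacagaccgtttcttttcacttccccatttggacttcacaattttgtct
Mertk, chr2:128698665-128698914, plus strand: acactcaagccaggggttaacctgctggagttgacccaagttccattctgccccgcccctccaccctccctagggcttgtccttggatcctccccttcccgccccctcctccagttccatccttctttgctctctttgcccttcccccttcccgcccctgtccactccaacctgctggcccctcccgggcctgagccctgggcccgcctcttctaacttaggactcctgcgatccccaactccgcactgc
GAGGAA stood 55 bases before the start of Fcgr1, 22 bases before that of Fcgr4 and 6 bases before that of Fcgr3, each time on the opposite strand. It was in 5 of the 8 genes examined, Itgam and Cd68 being the others, and in 23.3% of the 32851 promoters of this length in the table. TTCNNNGAA was in 1 of the 8, Fcgr1, 109 bases before its start, and in 7.02% of all promoters. A match of these letters describes the sequence and does not show that a factor binds.

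The first question was which of the 10 genes differ between tumor-associated and control IWAT of the same diet. In lean mice 9 of the 10 were higher in tumor-associated IWAT, where 3.27% of all tested genes were called higher and 0.913% lower (edgeR quasi-likelihood test, Benjamini-Hochberg adjusted p under 0.05, over 14458 genes). In obese mice the same 9 were higher, against 26.8% of all genes called higher and 27.7% lower. Mertk was the gene not called in either diet, and none of the 10 was called lower. The 10 genes had a median log2 fold change of 1.35 in lean mice and 1.51 in obese mice, beside 0.01 and -0.02 over all genes tested. Fold changes below are on the log2 scale, with SE for their standard error. The lean count fell when single pads or mice were left out. It was 6 without the tumor-associated pad of lean mouse 0 or of lean mouse 2. It was 6 without both pads of lean mouse 2, and 5 without both pads of lean mouse 0 or of lean mouse 3. Calls of higher genes over all genes tested fell as well, from 473 to 203, 169, 115, 159 and 167 in these fits, in that order. The obese count was 9 without both pads of obese mice 2 and 4 and 8 without those of obese mice 1 and 3. In these bulk libraries, more cells of a type and more RNA per cell cannot be told apart. Values in the lean groups below are in the order of mice 0, 2, 3, 6 and 9, and those in the obese groups are the lowest, the median and the highest of the 6 mice.

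Among the pan-macrophage markers, Emr1 encodes the adhesion receptor F4/80 (chromosome 17, 57358691 to 57483527). It was 56.7, 74.2, 53.9, 52.4 and 82.2 CPM in lean control and 167, 199.7, 169, 118 and 120.2 CPM in lean tumor-associated IWAT. In obese mice it ran over 73.6, 103 and 119 CPM in control and 158, 324 and 419 CPM in tumor-associated IWAT. Every tumor-associated library was above every control library of its diet, and the lean mouse with the smallest rise was mouse 9, whose control pad was the highest of its group. The log2 fold change was 1.28 (SE 0.25, edgeR adjusted p = 0.00472) in lean and 1.57 (SE 0.22, edgeR adjusted p = 2.74e-05) in obese mice.

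Cd68 encodes a glycoprotein of late endosomes and lysosomes of macrophages (chromosome 11, 69664213 to 69666153). Its level was 16.3, 20.6, 15.0, 12.8 and 26.1 CPM in lean control and 74.2, 86.1, 47.4, 26.5 and 43.9 CPM in lean tumor-associated pads, and 43.6, 53.6 and 80.1 CPM in obese control and 74.3, 165 and 221 CPM in obese tumor-associated pads. The lean groups did not overlap, although the highest control and the lowest tumor-associated library were 26.1 and 26.5 CPM. In obese mice, tumor-associated mouse 4 was below the highest control pad, that of mouse 8. Cd68 rose by 1.61 (SE 0.31, edgeR adjusted p = 0.00472) on the log2 scale in lean mice and by 1.43 (SE 0.27, edgeR adjusted p = 0.000316) in obese mice.

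Itgam encodes the alpha chain CD11b of the complement receptor 3 integrin, carried by monocytes, macrophages and neutrophils (chromosome 7, 128062640 to 128118491). It was 54.0, 48.5, 53.6, 27.8 and 66.3 CPM in lean control and 148, 223, 144, 87.8 and 116 CPM in lean tumor-associated IWAT, and 50.2, 64.8 and 76.8 CPM and 161, 343 and 372 CPM in the obese groups. Neither diet had an overlap between the pads. The log2 fold changes were 1.52 (SE 0.26, edgeR adjusted p = 0.00167) in lean and 2.23 (SE 0.24, edgeR adjusted p = 1.87e-06) in obese mice. In GENCODE M21 Itgam shares 3450 exonic bases with Gm49368 on the same strand, so a part of its reads may not have been assigned to it. The annotation used for counting is not given in the sources used here. Of 11 neutrophil markers in the table, 10 had a group mean of at most 2.14 CPM in every group. The exception was Ltf, the lactoferrin gene, which epithelium also expresses, with group means from 70.7 to 276.8 CPM. Of these markers 2 could be tested, and 0 were called in either tumor comparison by edgeR, with 0 at an unadjusted p under 0.05.

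**Figure D1:**
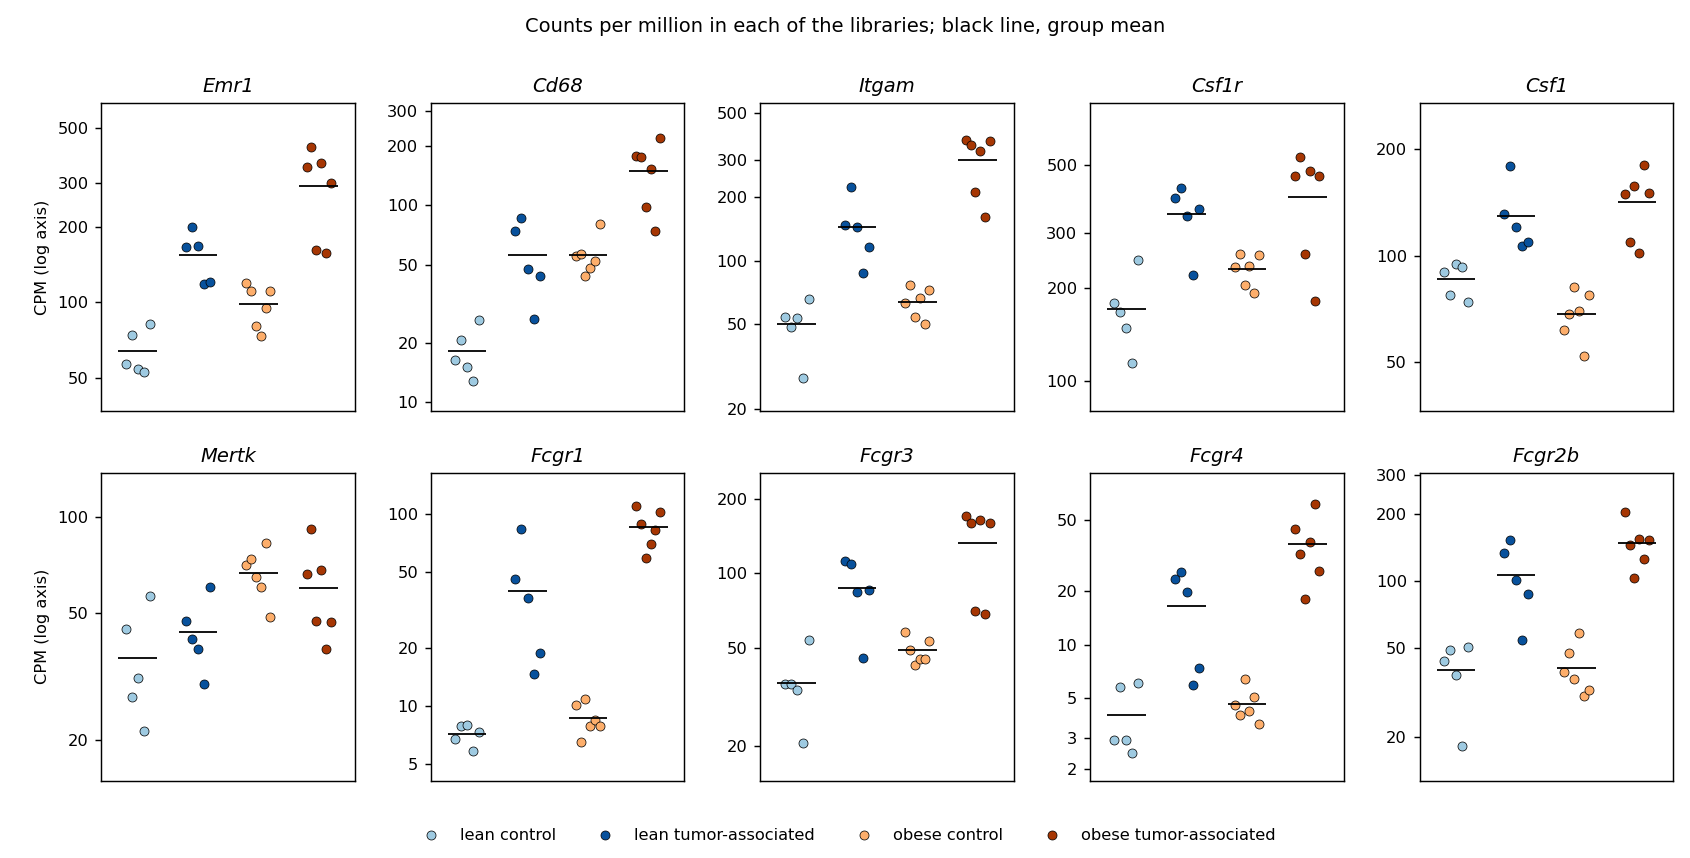
Level of each of the 10 genes in each of 22 libraries, in CPM on a log axis, with the 4 groups side by side (5 lean and 6 obese mice per pad type) and a black line at the group mean. Fcgr1 and Fcgr4 show the largest distances on the log axis between control and tumor-associated group means, although the lean libraries of Fcgr4 overlap. The Fcgr1 means were 7.13 and 40.0 CPM in lean and 8.61 and 85.9 CPM in obese mice. Mertk shows overlapping groups within each diet.

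Csf1 encodes the growth factor of the macrophage lineage (chromosome 3, 107741048 to 107760469). It was 90.1, 77.1, 94.9, 92.6 and 73.9 CPM in lean control and 131, 179.5, 120.4, 106 and 109 CPM in lean tumor-associated IWAT, and 51.9, 69.0 and 81.4 CPM and 102, 149.9 and 180.3 CPM in the obese groups. The pads did not overlap in either diet, and the highest lean tumor-associated library was that of mouse 2. In obese mice the log2 fold change was 1.05 (SE 0.15, edgeR adjusted p = 2.74e-05). In lean mice it was 0.59 (SE 0.16, edgeR adjusted p = 0.0432), a call near the threshold: with the mouse as a replicate block it was 0.57 (edgeR adjusted p = 0.0910), with no filter on low counts 0.57 (edgeR adjusted p = 0.0675), and without both pads of lean mouse 2 it was 0.39 (edgeR adjusted p = 0.385). The call was lost in 14 of 22 fits that left out 1 library, among them the fits without lean tumor-associated mouse 0, 2 or 3 and without any 1 of the 5 lean control pads.

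Csf1r encodes the receptor for CSF1 and IL34 (chromosome 18, 61100598 to 61132149). Its level was 179, 167, 148, 114 and 246 CPM in lean control and 389, 420.5, 342, 219 and 359 CPM in lean tumor-associated pads, and 193, 235 and 257 CPM and 181, 459.9 and 527 CPM in the obese pads. The groups overlapped in both diets: lean control mouse 9 was above lean tumor-associated mouse 6, and obese tumor-associated mouse 4 was below every obese control pad. The log2 fold changes were 1.02 (SE 0.25, edgeR adjusted p = 0.0227) in lean and 0.78 (SE 0.22, edgeR adjusted p = 0.00659) in obese mice. The lean call was lost without lean tumor-associated mouse 0 or 2 or without lean control mouse 2, 3 or 6 (edgeR adjusted p = 0.0543 to 0.0947). It was also lost without both pads of lean mouse 0, 2 or 3 (edgeR adjusted p = 0.101 to 0.174). The obese call was lost without both pads of obese mice 1 and 3 (0.60, edgeR adjusted p = 0.0676). Csf1r shares 873 exonic bases with Hmgxb3 on the opposite strand, and the strand setting of the counting is not given in the sources used here.

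Mertk, the gene of the receptor kinase of apoptotic cell uptake (chromosome 2, 128698956 to 128802894), was the member called in neither diet. It was 44.6, 27.3, 31.4, 21.3 and 56.5 CPM in lean control and 47.4, 41.5, 38.7, 30.0 and 60.2 CPM in lean tumor-associated IWAT, a log2 fold change of 0.26 with a 95% interval from -0.27 to 0.79 (edgeR adjusted p = 0.766). In obese mice it was 48.7, 67.8 and 83.0 CPM in control and 38.6, 56.8 and 92.0 CPM in tumor-associated IWAT, a log2 fold change of -0.16 with an interval from -0.64 to 0.32 (edgeR adjusted p = 0.576). The groups overlapped in both diets. The obese value was 0.10 without both pads of mice 2 and 4 (edgeR adjusted p = 0.788) and -0.44 without those of mice 1 and 3 (edgeR adjusted p = 0.168).

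Fcgr1 encodes FcγRI, the receptor of high affinity for monomeric immunoglobulin G (chromosome 3, 96282909 to 96293969), whose promoter is shown above. It was 6.74, 7.87, 7.96, 5.81 and 7.29 CPM in lean control and 46.0, 83.6, 36.7, 14.7 and 19.0 CPM in lean tumor-associated IWAT. The obese groups were 6.46, 8.16 and 10.9 CPM and 59.6, 86.0 and 110.2 CPM. No tumor-associated library overlapped a control library of its diet, and lean mice 6 and 9 were far below lean mouse 2. Fcgr1 had the largest log2 fold change of the 10 genes in both diets, 2.48 (SE 0.34, edgeR adjusted p = 0.000285) in lean and 3.31 (SE 0.31, edgeR adjusted p = 6.55e-07) in obese mice, and ranked 27 and 62 of 14458 genes by log2 fold change.

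Fcgr4 encodes FcγRIV, an activating receptor of myeloid cells for IgG2a and IgG2b (chromosome 1, 171018920 to 171029761). Its level was the lowest among the members' counts, 2.90, 5.77, 2.91, 2.46 and 6.10 CPM in lean control and 23.3, 25.6, 19.8, 5.92 and 7.41 CPM in lean tumor-associated IWAT, with 14 to 36 counts per lean control library. The obese groups were 3.58, 4.41 and 6.45 CPM and 17.9, 35.1 and 61.6 CPM. In lean mice the tumor-associated pad of mouse 6 was below the control pad of mouse 9, whereas the obese groups were wholly apart, with mouse 4 the highest. The log2 fold changes were 2.03 (SE 0.40, edgeR adjusted p = 0.00578) and 2.97 (SE 0.37, edgeR adjusted p = 6.85e-06); the lean call was lost without both pads of lean mouse 0 or of lean mouse 3 (edgeR adjusted p = 0.0570 and 0.0559).

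Fcgr3 encodes FcγRIII, an activating receptor of low affinity on macrophages, neutrophils and natural killer cells (chromosome 1, 171051174 to 171064935). It was 35.6, 35.5, 33.5, 20.6 and 53.6 CPM in lean control and 112, 109.6, 83.7, 45.2 and 85.3 CPM in lean tumor-associated IWAT, and 42.5, 46.9 and 57.6 CPM and 68.6, 159.8 and 171 CPM in the obese groups. Lean control mouse 9 was above lean tumor-associated mouse 6, and the obese groups did not overlap. The log2 fold changes were 1.28 (SE 0.28, edgeR adjusted p = 0.0131) in lean and 1.44 (SE 0.26, edgeR adjusted p = 0.000165) in obese mice. Without lean tumor-associated mouse 0 or 2 the lean call was lost (edgeR adjusted p = 0.0505 and 0.0549). It was also lost without both pads of lean mouse 0, 2 or 3 (edgeR adjusted p = 0.0703 to 0.118). Natural killer cell markers, 8 in all, summed to 5.87 to 37.2 CPM over the libraries. Of the 6 that were tested, edgeR called 0 in either tumor comparison, with 0 at an unadjusted p under 0.05, and their part in the change of Fcgr3 was not tested.

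Fcgr2b encodes FcγRIIB, the inhibitory receptor (chromosome 1, 170958617 to 170976547). It was 43.9, 49.3, 38.0, 18.1 and 50.9 CPM in lean control and 134, 154, 102, 54.7 and 87.9 CPM in lean tumor-associated IWAT, and 30.5, 37.8 and 58.7 CPM and 103, 150.0 and 206 CPM in the obese groups. Neither diet had an overlap. Its log2 fold changes were 1.41 (SE 0.27, edgeR adjusted p = 0.00512) in lean and 1.86 (SE 0.25, edgeR adjusted p = 1.76e-05) in obese mice. The highest obese control pads were those of mice 3 and 1, 58.7 and 47.7 CPM, the libraries with the most B cell markers, and without both pads of these mice the obese log2 fold change was 2.07 (edgeR adjusted p = 7.26e-05). Protein-coding transcripts of Fcgr2b and Fcgr3 share an identical run of up to 129 bases, and 10.2% of the 50-base windows of Fcgr3 and 4.48% of those of Fcgr2b occur in the other, so that a part of their reads cannot be assigned uniquely; the other pairs of these receptors shared at most 14 bases in a row. Fcgr2b also shares 155 exonic bases with the antisense transcript Gm38204.

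Counted in each diet, the tumor-associated and control libraries did not overlap for 6 of the 10 genes in lean mice (Emr1, Cd68, Itgam, Csf1, Fcgr1 and Fcgr2b), beside 5.33% of all genes tested, and for 7 in obese mice (Emr1, Itgam, Csf1, Fcgr1, Fcgr2b, Fcgr3 and Fcgr4), beside 9.95% of all genes.

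The mixture of Fc gamma receptor transcripts differed between the pads. As a share of the summed RPKM of the 4 genes, Fcgr1 was 8.73% ± 2.16 (SD, n = 5) in lean control and 14.7% ± 4.91 (SD, n = 5) in lean tumor-associated IWAT, and 7.92% ± 1.55 (SD, n = 6) and 20.6% ± 3.16 (SD, n = 6) in obese mice. It was higher in the tumor-associated pad of 5 of 5 lean and 6 of 6 obese mice. Fcgr3, which made up most of the sum in control pads, went from 61.4% ± 3.39 to 53.4% ± 7.14 in lean and from 66.5% ± 4.72 to 45.5% ± 9.56 in obese mice, lower in 5 of 5 and 6 of 6 mice. Fcgr4 was higher as a share in 4 of 5 lean and 6 of 6 obese mice and reached 34.4% in obese tumor-associated mouse 4. The share of Fcgr2b was higher in 2 of 5 lean and 4 of 6 obese mice, and the ratio of the 3 activating genes to Fcgr2b averaged 3.99 ± 0.773 in control and 4.22 ± 0.242 in tumor-associated pads of lean mice (higher in 3 of 5 mice). In obese mice the means were 5.25 ± 1.33 and 5.38 ± 0.603, but the ratio was higher in the tumor-associated pad of 2 of 6 mice only, mice 1 and 3, whose control pads had the lowest ratios of their group (4.10 and 3.18) and the most B cell markers. These shares were not tested and depend on the exon lengths used, since Fcgr2b has 5790 annotated exonic bases over all its transcripts and Fcgr3 has 1736.

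**Figure D2:**
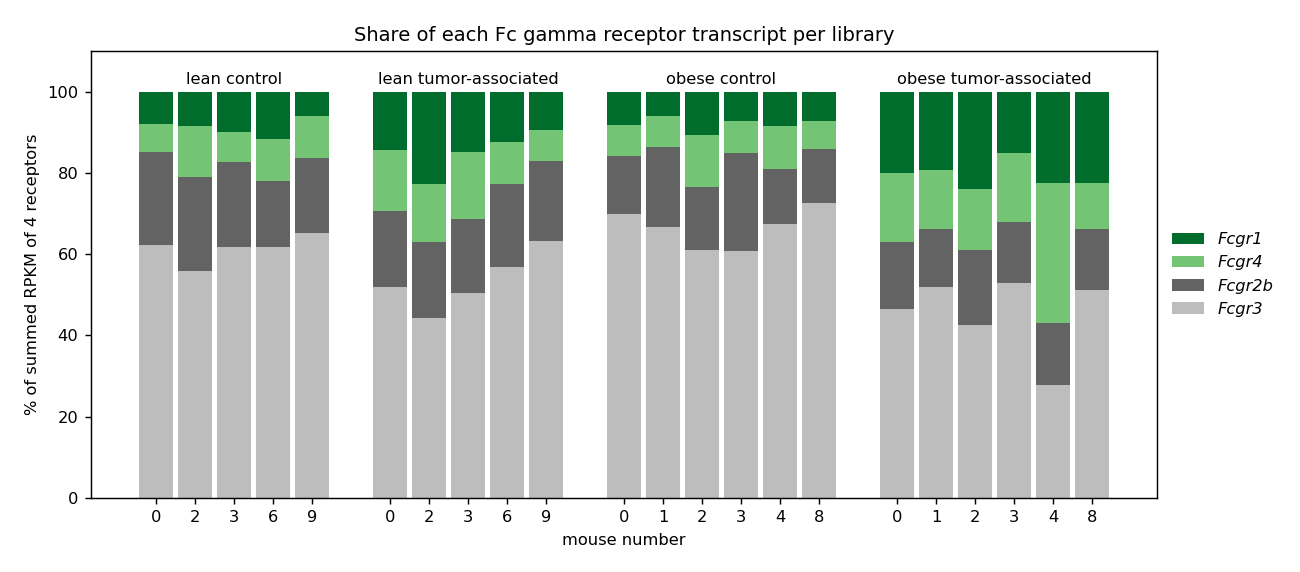
Share of each Fc gamma receptor gene in the summed RPKM of the 4 genes, in percent, as 1 stacked bar for each of 22 libraries, ordered by group and mouse number. The Fcgr1 share was at most 10.5% in an obese control library and at least 15.2% in every obese tumor-associated library. The lean groups overlapped, with at most 11.7% in a control library and 9.46% to 22.7% in tumor-associated libraries.

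To ask whether the members rose by equal amounts, the change of each gene from the control to the tumor-associated pad of a mouse was set against the change of Emr1 in the same mouse (limma over 14457 genes, adjusted p under 0.05). Library scaling largely cancels in this difference, but the error of Emr1 enters every value. In lean mice Fcgr1 rose by 0.91 more than Emr1 on the log2 scale (SE 0.30, limma adjusted p = 0.00642, 5 of 5 mice), 1 of the 9 other members, beside 0.228% of all genes called higher. In obese mice 3 of the 9 rose more than Emr1, beside 1.78% of all genes. Fcgr1 exceeded it by 1.78 (SE 0.28, limma adjusted p = 7.49e-07), Fcgr4 by 1.34 (SE 0.31, limma adjusted p = 0.00019) and Itgam by 0.69 (SE 0.24, limma adjusted p = 0.00762), each in 6 of 6 mice. The lean call of Fcgr1 was lost without lean mouse 2 (0.66, limma adjusted p = 0.0769).

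Genes that changed less than Emr1 were 88.5% of all genes in lean and 88.8% in obese mice, so that a member in this class is like most genes. They were Csf1 at -0.70 (SE 0.31, limma adjusted p = 0.0333) and Mertk at -0.95 (SE 0.26, limma adjusted p = 0.00135) in lean mice, and Csf1r at -0.80 (SE 0.22, limma adjusted p = 0.00135) and Mertk at -1.69 (SE 0.24, limma adjusted p = 1.34e-07) in obese mice. The lean call of Csf1 was lost without lean mouse 0, 3 or 6 (limma adjusted p = 0.0915 to 0.140). Mertk was below Emr1 in 11 of 11 mice. For Cd68, Fcgr2b and Fcgr3 no difference from Emr1 was called in either diet: the lean values were 0.26, 0.14 and 0.01 and the obese values -0.13, 0.37 and -0.14, with standard errors from 0.23 to 0.28. Without obese mouse 3 the obese value of Fcgr2b was 0.62 and was called (limma adjusted p = 0.0217). With Ptprc, which encodes the pan-leukocyte antigen CD45, as the reference gene, all 3 lean calls were lost: Fcgr1 had 1.58 (limma adjusted p = 0.507), Mertk -0.28 (limma adjusted p = 0.692) and Csf1 -0.03 (limma adjusted p = 0.970). In obese mice the calls of Mertk (-0.77, limma adjusted p = 0.266) and Csf1r (0.12, limma adjusted p = 0.878) were lost, and Fcgr2b was called (1.30, limma adjusted p = 0.0349). Ptprc itself ranged from 95.6 to 748.1 CPM over the obese control pads, with the pads of mice 1 and 3 the highest.

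**Figure D3:**
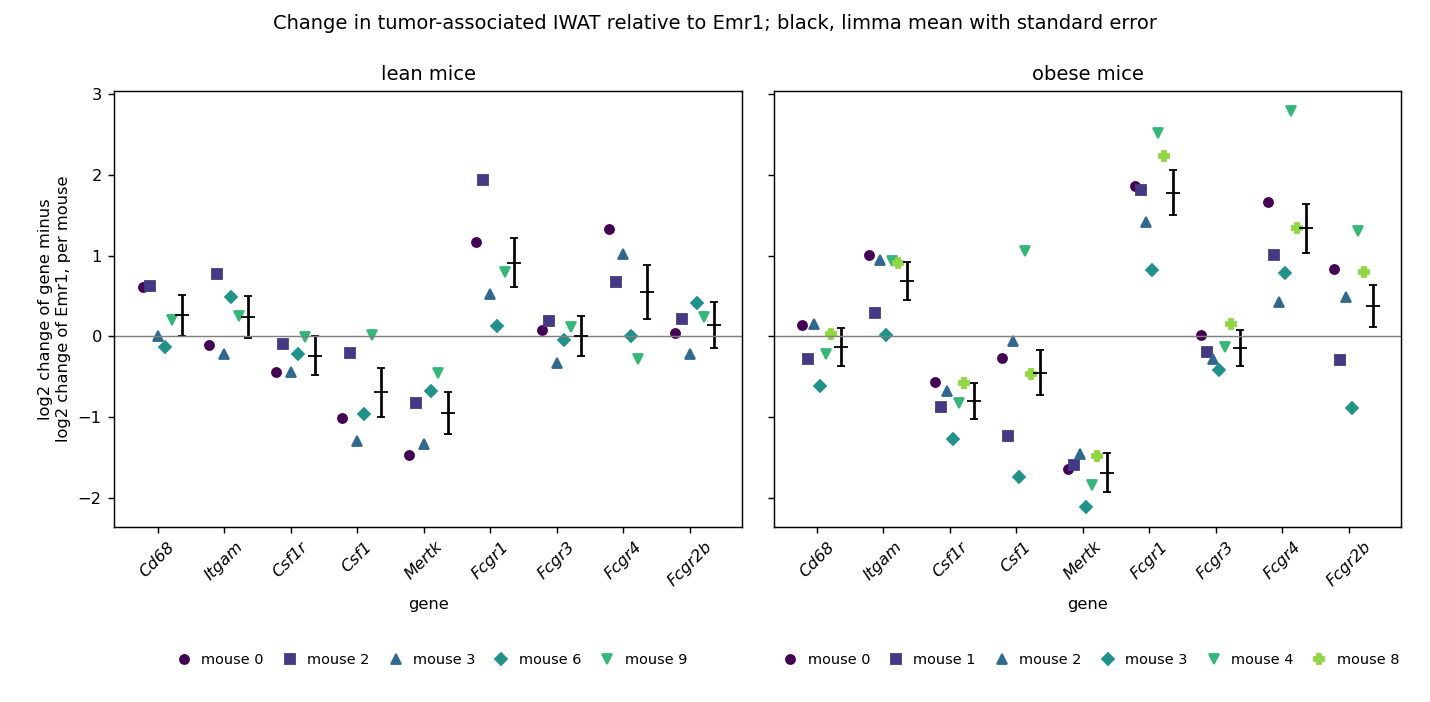
Change of each gene from control to tumor-associated IWAT minus the change of Emr1 in the same mouse, on the log2 scale, with 1 marker per mouse (5 lean, 6 obese) and the limma mean with its SE in black. Fcgr1 is above 0 in all 11 mice and Mertk below 0 in all 11, and obese mouse 4 has the highest values of Csf1 and Fcgr4.

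Mice differed in the size of the rise and in which genes rose most. Lean mouse 9 had the smallest lean log2 change of Emr1 (0.55), Cd68 (0.74), Itgam (0.80) and Csf1r (0.54). It was also the smallest for Fcgr2b (0.79), Fcgr3 (0.67) and Fcgr4 (0.27). Among obese mice, mouse 4 had the smallest change of Emr1 (0.74), Cd68 (0.52), Itgam (1.67), Csf1r (-0.09), Mertk (-1.10) and Fcgr3 (0.60). It had the largest change of Csf1 (1.79) and Fcgr4 (3.53). Obese mouse 2 had the smallest change of Fcgr1 (2.42) and Fcgr4 (1.44). The tumor-associated pad of obese mouse 4 also had the lowest adipocyte marker sum of the 22 libraries; the part of this in the members' values was not tested.

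A second question was whether the genes differ between obese and lean mice in pads of the same kind, using the same libraries as the pad comparisons. In control IWAT 2 of the 10 were called higher in obese mice, where 9.54% of all genes were called higher. Cd68, at 55.9 ± 12.8 CPM (SD, n = 6) in obese mice, had a difference of 1.62 (SE 0.30, edgeR adjusted p = 0.00107) from the 18.2 ± 5.27 CPM (SD, n = 5) of lean mice and was the 1 member whose control groups did not overlap, beside 7.44% of all genes. For Mertk, with 67.0 ± 11.9 CPM in obese and 36.2 ± 14.2 CPM in lean mice, the difference was 0.88 (SE 0.25, edgeR adjusted p = 0.0174). That call was lost without lean control mouse 6, the lowest library (0.74, edgeR adjusted p = 0.0564). Emr1 had a value of 0.62 (SE 0.23, edgeR adjusted p = 0.071), and was called in a fit to the control groups alone (0.62, edgeR adjusted p = 0.0125). The values of Fcgr1, Fcgr2b, Fcgr3 and Fcgr4 were 0.27, 0.03, 0.44 and 0.22, with 95% intervals that reached 0.96, 0.57, 1.00 and 1.04 at the upper end. Csf1 was the member with a negative value, -0.33 (SE 0.16, edgeR adjusted p = 0.155). Without both pads of obese mice 2 and 4, 4 members were called, Emr1 and Csf1r being the additional genes, and without those of mice 1 and 3 it was 2.

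In tumor-associated IWAT 5 of the 10 were called higher in obese mice, beside 24.7% of all genes. Fcgr4 averaged 36.7 ± 15.3 CPM in the 6 obese and 16.4 ± 9.16 CPM in the 5 lean mice, and differed by 1.16 (SE 0.36, edgeR adjusted p = 0.0115). The log2 fold change of Fcgr1 was 1.10 (SE 0.30, edgeR adjusted p = 0.00539) and that of Itgam 1.06 (SE 0.25, edgeR adjusted p = 0.00164). Cd68 differed by 1.43 (SE 0.29, edgeR adjusted p = 0.000545) and Emr1 by 0.91 (SE 0.23, edgeR adjusted p = 0.00334). No member separated the diets completely, where 11% of all genes did. For the CSF1 axis the values were 0.13 for Csf1, with a 95% interval from -0.19 to 0.45, and 0.19 for Csf1r, with an interval from -0.30 to 0.67. Fcgr3 had a value of 0.61 (SE 0.26, edgeR adjusted p = 0.0647), which was called without obese tumor-associated mouse 2 or 4 (edgeR adjusted p = 0.0229 and 0.0209). The count was 7 without both pads of mice 2 and 4 and 5 without those of mice 1 and 3.

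**Figure D4:**
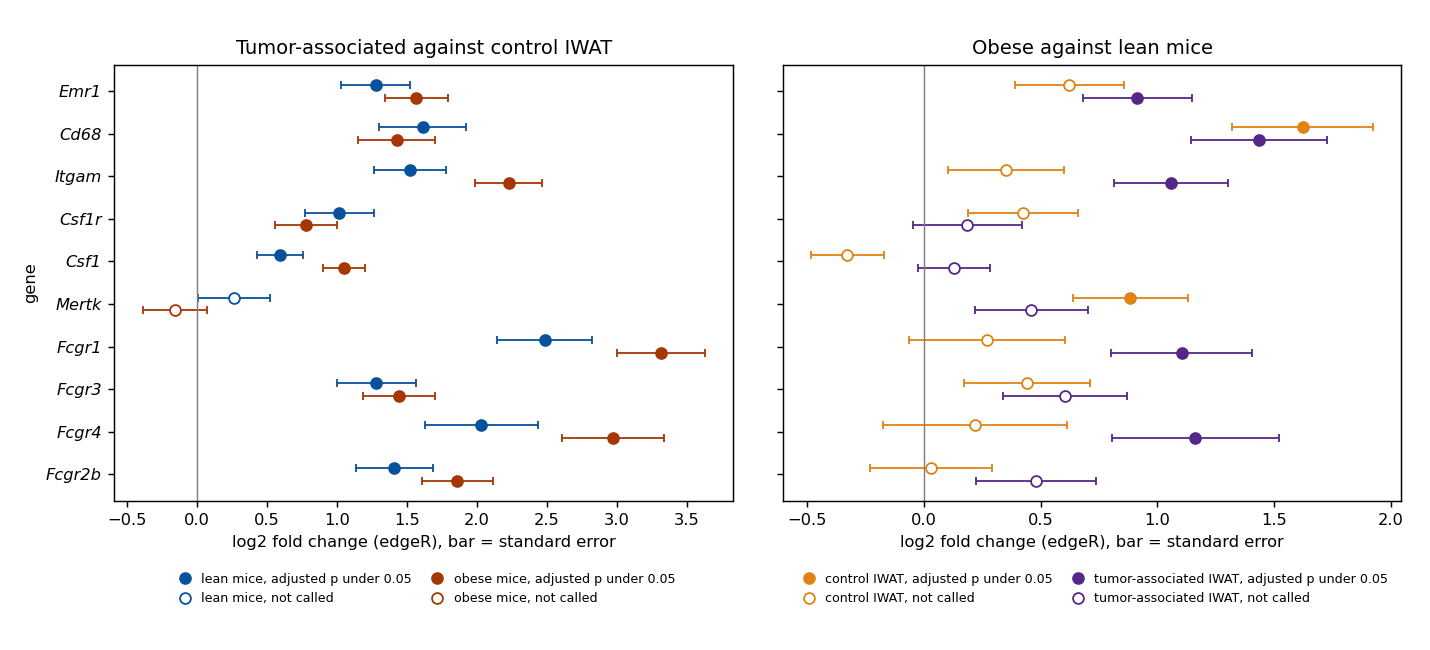
Log2 fold change of the 10 genes from edgeR with its standard error, with the pad comparisons of lean and obese mice on the left, and for obese against lean mice in control and tumor-associated IWAT on the right. Filled points have an adjusted p under 0.05. On the left 9 genes are filled in both diets with Mertk near 0, and on the right Cd68 and Mertk are filled in control IWAT and 5 genes in tumor-associated IWAT. The comparisons share libraries.

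Whether the tumor change itself differed between diets was asked with the obese minus the lean change. No member was called by edgeR, with 0 of 10 also at an unadjusted p under 0.05, where edgeR called 4.92% of all genes in either direction. DESeq2 called 0 of the 10 as well, beside 1261 genes called higher and 1103 lower of 14850. The largest values were those of Fcgr4 (0.94, 95% interval -0.16 to 2.04, edgeR adjusted p = 0.214) and Fcgr1 (0.83, interval -0.10 to 1.76, edgeR adjusted p = 0.194). Itgam had 0.71 (interval -0.01 to 1.42, edgeR adjusted p = 0.157), and Csf1 had 0.46 (interval -0.0005 to 0.91, edgeR adjusted p = 0.152). The values of Cd68, Csf1r and Mertk were negative, -0.19, -0.24 and -0.42. Without both pads of obese mice 1 and 3 the difference of Csf1 was 0.64 and was called (edgeR adjusted p = 0.0327), and Emr1 went from 0.29 to -0.02. In that fit 2411 of 14399 genes were called higher and 2540 lower, so a called gene there is like many others.

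Per kilobase of exon the order of the members shifted with diet. In lean control IWAT Csf1r was the highest at 29.6 ± 8.44 RPKM (SD, n = 5), followed by Fcgr3 at 20.6 ± 6.77 and Emr1 at 19.7 ± 4.16, which did not differ beyond their spread. Csf1r was the first in lean tumor-associated IWAT too, at 59.9 ± 13.3 RPKM, where Fcgr3, Emr1 and Cd68 followed between 50.2 and 44.3 RPKM within 1 SD of each other. In obese mice Cd68 was the first, at 44.5 ± 10.2 RPKM (SD, n = 6) in control and 119.5 ± 43.5 RPKM in tumor-associated IWAT, with Csf1r at 39.8 ± 4.56 in control and Emr1 at 90.0 ± 33.5 RPKM in tumor-associated IWAT as the next, each within 1 SD of Cd68. The last place went to Fcgr1 in control pads, at 2.76 ± 0.344 RPKM in lean and 3.33 ± 0.629 RPKM in obese mice, next to Fcgr4 at 3.21 ± 1.40 and 3.71 ± 0.804 RPKM. Mertk was the last in tumor-associated pads, at 10.1 ± 2.59 RPKM in lean and 13.8 ± 4.52 RPKM in obese mice, where Fcgr1 had risen to 15.5 ± 10.6 and 33.2 ± 7.43 RPKM. Csf1, the ligand, was at 12.9 to 26.8 RPKM in the group means and thus below its receptor in all 4 groups.

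Members also varied together within groups. The deviations of log2 CPM from the group means were correlated over the 22 libraries, which share depth, animals and tissue composition, and are given as a description. The highest Pearson's r was that of Csf1r and Fcgr3 (0.95), then Itgam and Csf1r (0.91), Cd68 and Fcgr3 (0.90) and Itgam and Fcgr3 (0.90). Fcgr1 and Fcgr4 were most alike to each other among the members (0.76), with lower values against Csf1r (0.40 and 0.25). Csf1 had negative values with Mertk (-0.50), Emr1 (-0.35) and Csf1r (-0.28). Against 10803 other genes, those most alike to Emr1 were Frmd4b (0.89), C1qb (0.87) and Fgd4 (0.87). Csf1 had Mgat2 (0.86), Ddx58 (0.84) and Isg20 (0.83), the last and the second being genes known to be induced by interferon. Snx6 (0.88), Pnp (0.865) and Mnda (0.84) were the most alike to Fcgr1. C1qb, a chain of complement C1q made by macrophages, was also among the 3 most alike to Itgam (0.96), Csf1r (0.97) and Fcgr3 (0.94), values that were picked out after they were seen.

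**Figure D5:**
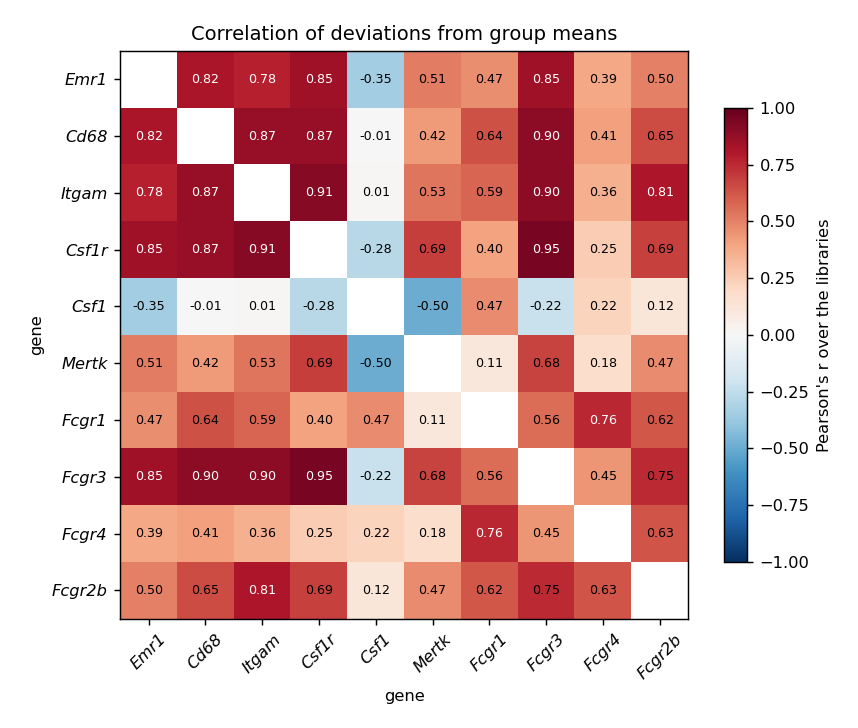
Pearson's r between the 10 genes of deviations of log2 CPM from the group means over 22 libraries, from -1 (blue) to 1 (red). Emr1, Cd68, Itgam, Csf1r and Fcgr3 form a block with values from 0.78 to 0.95, Fcgr1 and Fcgr4 are at 0.76, and Csf1 is between -0.50 and 0.47 with every other member.

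The partners of the members were taken from 4 gene lists. Of 10 genes of the CSF1 receptor axis and myeloid regulators, 2 were called higher and 0 lower in lean tumor-associated IWAT, and 6 higher and 1 lower in obese. The shares over all genes, against which this and the next list counts are to be read, were 3.27% higher and 0.913% lower in lean mice and 26.8% higher and 27.7% lower in obese mice. Csf3r, the receptor of granulocyte colony-stimulating factor, rose by 1.34 (SE 0.28, edgeR adjusted p = 0.00857) and 1.60 (SE 0.25, edgeR adjusted p = 6.31e-05). Sfpi1, the symbol in the table for Spi1, which encodes PU.1, rose by 1.20 (SE 0.26, edgeR adjusted p = 0.0104) and 1.42 (SE 0.23, edgeR adjusted p = 6.63e-05). Cebpa, a factor of adipocytes as well as myeloid cells, fell by 1.11 in obese mice (SE 0.28, edgeR adjusted p = 0.0023). Il34, the other ligand of the CSF1 receptor, had -0.17 in lean and 0.04 in obese mice (edgeR adjusted p = 0.839 and 0.867) and was at 11.9 to 16.4 CPM in the group means. The list had medians of 0.25 in lean mice and 0.57 in obese mice.

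Of 13 genes of Fc receptor partners and signaling, 4 were called higher in lean mice (3.27% of all genes) and 6 in obese mice (26.8% of all genes), and 0 lower, with medians of 0.74 and 0.57. The common gamma chain gene Fcer1g went from 18.8 ± 4.64 to 51.6 ± 19.3 CPM (SD, n = 5) in lean mice and from 24.8 ± 4.06 to 99.3 ± 21.8 CPM (SD, n = 6) in obese mice. It rose by 1.45 (SE 0.23, edgeR adjusted p = 0.00111) in lean and 2.00 (SE 0.21, edgeR adjusted p = 1.7e-06) in obese mice.

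Of 15 genes of the Mertk family, its bridging ligands and engulfment, 1 was called higher and 0 lower in lean mice, and 5 higher and 3 lower in obese mice, with medians of 0.39 and 0.16. The shares over all genes in obese mice were 26.8% higher and 27.7% lower. Stab1, a scavenger receptor, rose by 1.24 (SE 0.28, edgeR adjusted p = 0.0164) and 1.27 (SE 0.26, edgeR adjusted p = 0.00055). Adam17, the protease that sheds MERTK from the cell surface, rose in obese mice by 0.81 (SE 0.12, edgeR adjusted p = 3.38e-05) and had 0.35 in lean mice (edgeR adjusted p = 0.153). Axl, the related receptor kinase, rose in obese mice by 0.76 (SE 0.13, edgeR adjusted p = 0.000145) and had 0.39 in lean mice (edgeR adjusted p = 0.158). In obese mice Stab2, a paralog of Stab1, fell by 2.12 (SE 0.73, edgeR adjusted p = 0.0187), and Mfge8, which bridges dying cells to integrins, fell by 1.09 (SE 0.24, edgeR adjusted p = 0.000891). The bridging ligands of MERTK were not called in either diet, with Gas6 at 0.72 and 0.11 and Pros1 at 0.59 and 0.16 in lean and obese mice (edgeR adjusted p = 0.278 to 0.777).

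Of 8 genes of beta2 integrins and counter-receptors, 0 were called in lean mice by edgeR, with 4 at an unadjusted p under 0.05, and 2 higher and 1 lower in obese mice, with medians of 0.35 and 0.18. Over all genes in obese mice 26.8% were called higher and 27.7% lower. Itgb2, the beta chain that pairs with CD11b, had 0.90 (SE 0.29, edgeR adjusted p = 0.0926) in lean mice and rose by 1.04 (SE 0.26, edgeR adjusted p = 0.00269) in obese mice. Fermt3, an activator of these integrins, rose in obese mice by 0.82 (SE 0.34, edgeR adjusted p = 0.0468), and Icam2, a ligand on endothelium, fell by 0.59 (SE 0.23, edgeR adjusted p = 0.0341). In control IWAT obese mice had 6 of the 8 called higher than lean mice, beside 9.54% of all genes, among them Itgb2 at 1.28 (SE 0.28, edgeR adjusted p = 0.00421), whereas Itgam had 0.35 (SE 0.25, edgeR adjusted p = 0.354). The control pads of obese mice 1 and 3, with the most B and T cell markers, had the highest Itgb2 of their group, 132.6 and 129.6 CPM, where the other 4 had 64.6 to 109.4 CPM; the part of this in the count was not tested.

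Markers of other cell types moved beside the members. The counts below are to be read against the shares over all genes. These were 3.27% higher and 0.913% lower in lean mice, and 26.8% higher and 27.7% lower in obese mice. Of 6 monocyte markers, 3 were called higher in lean and 4 in obese tumor-associated IWAT, and their sum went from 70.9 to 161.8 CPM in control to 124.3 to 315.2 CPM in tumor-associated pads of lean mice, and from 50.3 to 280.5 CPM to 206.9 to 394.3 CPM in those of obese mice. Of 10 adipocyte markers 0 were called by edgeR in lean mice, with 1 at an unadjusted p under 0.05, and 9 were lower in obese tumor-associated IWAT. All 4 endothelial markers and 6 of 7 tested epithelial markers were called lower in the tumor-associated pads of obese mice. For lean mice edgeR called 0 of each, with 0 at an unadjusted p under 0.05. Of 5 fibroblast markers, the collagen genes Col1a1 and Col3a1 were called higher in both diets. Dcn was called lower in obese mice, and the list had medians of 0.75 in lean and -0.04 in obese mice. Of 7 markers of mast cells, which also express Fcer1g, 2 were called higher in lean mice and 1 lower in obese mice. By edgeR 6 of the 7 were at an unadjusted p under 0.05 in lean mice and 1 in obese mice. The list had medians of 1.21 in lean and -0.09 in obese mice. In obese mice 3 of 8 B cell, 1 of 7 T cell and 1 of 7 dendritic cell markers were called lower. Control pads of obese mice 1 and 3 had the highest sums of each of these lists in their group. Their B cell sums were 755.8 and 672.3 CPM in control and 6.08 and 167 CPM in tumor-associated pads. The other obese mice held 2.92 to 16.4 CPM in control and 4.22 to 5.41 CPM in tumor-associated pads. For lean mice edgeR called 0 of each of these lists, with 0 at an unadjusted p under 0.05. Ptprc had 0.52 (SE 0.53, edgeR adjusted p = 0.794) in lean and -0.04 (SE 0.48, edgeR adjusted p = 0.955) in obese mice. The obese value joins unlike animals: in mice 1 and 3 Ptprc was 748.1 and 734.1 CPM in the control pad and 289 and 433 CPM in the tumor-associated pad, whereas in the other 4 mice it was 95.6 to 118.9 CPM in control and 203 to 344 CPM in tumor-associated pads. The part of these cells in the members' changes was not tested.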

How the data were processed

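Total RNA of 22 pads was depleted of ribosomal RNA and sequenced, and the authors checked reads with FastQC, filtered and trimmed them, aligned them to mm10 with STAR 2.4.0f and counted reads per gene with HTSeq; the strand setting and annotation are not given in the sources used here. The deposited table holds raw counts of 23420 genes, and its 5 HTSeq total lines were left out. Reads on no gene were 38.5 to 48.8% of those lines and gene counts together. Libraries were grouped by diet and pad from the labels, and pads of 1 mouse were joined by mouse number. Separate animals are the replicates.

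Genes were filtered with filterByExpr, scaled by TMM and tested with edgeR 4.0.16 (quasi-likelihood, R 4.3.3) in 1 fit of 4 groups, with Benjamini-Hochberg adjustment over 14458 genes and a threshold of 0.05. Changes minus that of Emr1 per mouse were tested with limma 3.58.1 on log2 CPM with a prior count of 2. The genes and lists were chosen with earlier results of these data known. Pads of 1 mouse deviated together with a median r of 0.508 in lean mice (over 0.1 in 5 of 5) and 0.168 in obese mice (4 of 6), and come from the same animal by the labels. Named genes are the 10 members, up to 2 genes called in each direction with the largest log2 fold change per pathway list and tumor comparison, Fcer1g, Itgb2, Il34, Gas6, Pros1, Axl and Ptprc, and the 3 genes most alike to Emr1, Csf1 and Fcgr1. A gene that this rule names is not reported here. Ltf, Col1a1, Col3a1 and Dcn were named after their values were seen. Positions are from GENCODE M21 (GRCm38) and promoters from RefSeq. Depth limits Fcgr4 and Fcgr1 in control pads, with counts as low as 14 and 33. The alternatives were DESeq2 1.42.0, other scaling and filters, the mouse as a block, groups fitted alone, libraries or mice left out, Cd68 or Ptprc as the reference gene, and a prior count of 0.5.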

Additional observations from a re-analysis of the deposited data

Results flagged for a closer look

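Fcgr2b in lean control IWAT had 1 library far below the others: mouse 6 at 18.13 CPM, where the other 4 lean control pads were between 38.0 and 50.9 CPM. The gap exceeded Dixon's 95% critical value for 5 samples (0.71). The same library was the lowest of its group for every other member except Csf1, with the next largest gap, 0.64 for Itgam, below that value. Over the 10 genes, 40 groups were examined and 1 stood out, where chance gives about 1 in 20.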

How the results depend on the processing

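Of 2020 alternative values of the 10 genes' log2 fold changes, 1943 kept their direction and side of the threshold, 45 fell below it, 15 passed it and 17 changed sign; the causes were not tested. Counts were 9 and 9 (tumor-associated against control, lean and obese), 2 and 5 (obese against lean, control and tumor-associated) and 0 (difference of the changes) with DESeq2. With the mouse as a replicate block, Csf1 in lean mice was 0.57 (edgeR adjusted p = 0.0910), and the block changed no other call. Upper-quartile scaling turned Fcgr2b, obese against lean control, to -0.0376. Without both pads of obese mice 2 and 4, Mertk in obese mice was 0.0979, 4 genes were called in obese against lean control, and Csf1, obese against lean tumor-associated, was -0.0182. Without those of obese mice 1 and 3, 1 of the 10 genes (Csf1) was called for the difference of the changes, beside 2411 higher and 2540 lower of 14399 genes. Emr1 and Fcgr3 in that difference were -0.0206 and -0.0398. In the same fit Fcgr2b in obese against lean control was -0.2031 and Csf1r in obese against lean tumor-associated -0.0226. With Ptprc as the reference, 0 genes were called by limma in lean mice, and Csf1r in obese mice was 0.1237. Leaving out 1 library or mouse gave 5 to 9 genes called in lean tumor-associated against control (5 without lean mouse 0 or 3) and 1 to 3 in obese against lean control (1 without the control pad of lean mouse 6, or without lean mouse 2, 3 or 6). The ranges were -0.1539 to 0.1288 for Fcgr2b in obese against lean control, -0.4266 to 0.0239 for Cd68 and -0.0353 to 0.3057 for Fcgr3 in the difference of the changes, and -0.0412 to 0.0888 for Fcgr3 minus Emr1 in lean mice.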
